A study of Mus musculus with 28 samples.

Results

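The genes described here are those of the somatotrope, the pituitary cell that makes growth hormone: the hormone itself (Gh), the receptors through which the hypothalamus and stomach control its release (Ghrhr, Ghsr, Sstr2 and Sstr5), the lineage factor Pou1f1, and Rxrg, a retinoid X receptor. They were named with earlier results of these data known, and all 7 were found by symbol among the 32594 genes of the count table and passed the filter on low counts. RNA was sequenced from the whole pituitary of 28 C57BL/6J mice, labelled as 8 weeks old (their age on arrival, per the methods), 16 females and 12 males, each mouse a separate library. Home cage controls (4 females, 4 males) were compared with mice given 20 min of restraint (4 females, 2 males), with mice deprived of paradoxical sleep (PSD) for 12 h on small platforms over water (4 females, 3 males), and with mice given PSD and then restraint (4 females, 3 males). Glands were taken 10 min after restraint ended and 18 h after PSD ended. No group carries an engineered allele or received a drug. Mice of every group had been accustomed to the tank beforehand, and the stage of the oestrous cycle is not given in the sources used here.

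Growth hormone release is driven by growth hormone-releasing hormone, which acts through the Gs-coupled receptor Ghrhr and cyclic AMP, and is held back by somatostatin, which acts through Gi-coupled receptors such as Sstr2 and Sstr5. Ghrelin, made in the stomach, adds to release through Ghsr. Pou1f1 (PIT1) is the POU-domain factor required for somatotropes, lactotropes and thyrotropes and binds the promoters of Gh, Prl and Ghrhr, while retinoid X receptors such as Rxrg pair with other nuclear receptors on DNA. Growth hormone secretion differs between the sexes in rodents, in the height and spacing of its pulses.

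Each mouse gave between 14024465 and 52948531 counts, with a median of 33389717, and the labelled sexes were borne out by Xist, at 785 CPM or more in every female and 1.74 CPM or less in every male. CPM here are counts scaled to a library of 1000000 after TMM scaling. Gh, Prl and Pomc together took 24.8% to 34.3% of all counts, so the share of one moves with that of the others. In markers of other cells male control mouse 1 stood apart, since the posterior lobe markers Avp, Oxt, Rax and Nkx2-1 summed to 0.743 CPM against 19.2 to 27.7 CPM in the other 3 male controls, and the melanotrope markers Pax7 and Pcsk2 to 233 CPM against 819 to 1068 CPM. Single mice were also far from the rest in genes of the lists used below, such as Igf2 (named after its values were seen), at 156 CPM in 1 PSD female against a median of 16.5 CPM over females. The sex differences in controls are also given without male control mouse 1 for Gh, Ghrhr and Ghsr. Differences in markers and list genes are given only with it.

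On the GRCm38 assembly with GENCODE M21 genes, all 7 are protein coding. Gh lies at chr11:106300271-106301865 on the minus strand, Ghrhr at chr6:55376295-55388530 on the plus strand, Ghsr at chr3:27371351-27378010 on the plus strand, Sstr2 at chr11:113619342-113626028 on the plus strand, Sstr5 at chr17:25489875-25497288 on the minus strand, Pou1f1 at chr16:65520511-65535005 on the plus strand and Rxrg at chr1:167598384-167639623 on the plus strand. Promoter sequences from RefSeq (GRCm38.p6) matched 4 of the 7, namely Ghsr, Sstr2, Pou1f1 and Rxrg. The 250 bases before the start of Pou1f1 and of Sstr2 are shown because these were, among the other 6 genes, the 2 most alike to Gh from mouse to mouse, as described further on, while only Sstr2 differed between the sexes. Both are on the plus strand, with the matched motif in capitals.
Pou1f1, chr16:65520262-65520511: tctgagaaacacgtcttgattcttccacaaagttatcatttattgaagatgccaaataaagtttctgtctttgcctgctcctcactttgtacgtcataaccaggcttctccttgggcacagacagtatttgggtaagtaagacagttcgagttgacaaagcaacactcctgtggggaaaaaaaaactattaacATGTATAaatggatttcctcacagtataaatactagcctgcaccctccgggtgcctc
Sstr2, chr11:113619077-113619326: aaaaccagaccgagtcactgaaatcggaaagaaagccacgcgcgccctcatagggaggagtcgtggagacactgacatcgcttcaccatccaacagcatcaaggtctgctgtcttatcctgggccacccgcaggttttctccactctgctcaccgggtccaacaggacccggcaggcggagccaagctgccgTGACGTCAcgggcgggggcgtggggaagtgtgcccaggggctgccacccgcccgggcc
The capitals in Pou1f1 are the reverse complement of the PIT1 motif TATNCAT, whose first base lies 57 bases before the start. In Sstr2 they are the cyclic AMP response element TGACGTCA, 58 bases before it. Distances are to the RefSeq start just after each window, not to the GENCODE positions given above. Searched on both strands, TATNCAT was found in 7.92% and TGACGTCA in 1.55% of all 32851 windows of this length. The nuclear receptor core AGGTCA, found in 14.02% of windows, had a match in Ghsr (minus strand, 91 bases before the start) and in 1 of the windows of Rxrg (88 bases before it). A further window of Pou1f1, chr16:65523059-65523308, had no match of any of these motifs. A match of letters is a description, not a bound site. Sstr2 lies within Slc39a11, which runs on the other strand, and the start of Pou1f1 is overlapped by the antisense transcript Gm49631. The library kit keeps strand, but the strand setting of the counting is not given in the sources used here, so reads of these pairs may be mixed.

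Growth hormone RNA far outweighed that of the receptors that govern it. Per kilobase of exon, with exon lengths from GENCODE rather than the gene models counted, female home cage controls had 94976 ± 16911 CPM per kb of Gh (SD, n = 4) and males 221095 ± 40504 CPM per kb (SD, n = 4). Ghrhr followed with 51.0 ± 11.4 CPM per kb in females and 88.0 ± 11.5 CPM per kb in males (SD, n = 4 each). Among the inhibitory receptors, Sstr5 reached 4.20 ± 0.58 CPM per kb in female and 7.81 ± 0.79 CPM per kb in male controls (SD, n = 4 each), and Sstr2 1.24 ± 0.27 and 2.64 ± 0.49 CPM per kb. Ghsr was lowest at 0.328 ± 0.087 CPM per kb in females and 0.543 ± 0.224 CPM per kb in males, and rested on 12 to 182 counts a mouse. The factors lay between, with Pou1f1 at 28.6 ± 1.8 and 26.1 ± 2.7 CPM per kb and Rxrg at 16.3 ± 2.7 and 24.5 ± 2.5 CPM per kb in female and male controls.

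**Figure D1:**
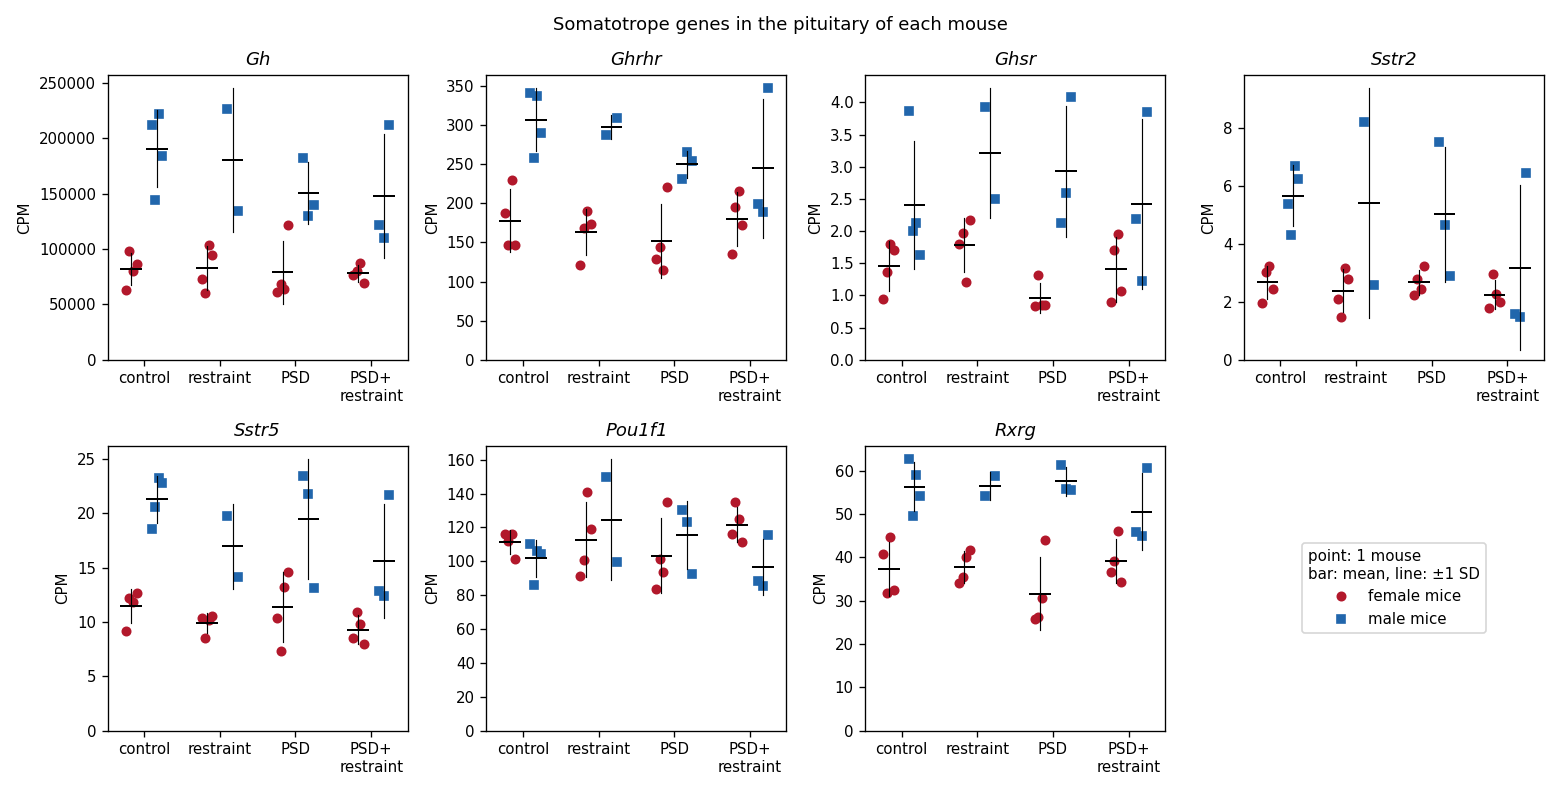
Level of each of the 7 genes in CPM on a linear axis from 0, by treatment, with 1 red circle per female and 1 blue square per male. Horizontal bars are group means and vertical lines 1 SD either side. Male home cage controls lie above female controls for 5 genes, while the sexes overlap for Pou1f1 and Ghsr, and male PSD + restraint mice split into 2 low values and 1 high value for Gh, Ghrhr, Sstr2 and Sstr5.

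The main difference was between the sexes. With sex fitted beside treatment over all mice, 6 of the 7 genes were lower in females and Pou1f1 did not differ detectably (edgeR quasi-likelihood test, Benjamini-Hochberg adjusted p of at most 0.05 and a change beyond 0.322 on the log2 scale). Among all 18874 genes tested, 7.82% were called lower in females and 14.9% in either direction. The median log2 fold change (female minus male) of the 7 was -0.79, against 0.01 over all genes. From a whole gland, fewer somatotropes cannot be told apart from less RNA per somatotrope.

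Gh was 2.07-fold lower in females, a log2 fold change of -1.05 (SE 0.12, adjusted p = 1.15e-07, edgeR). It stood at 62958, 97950, 80350 and 86220 CPM in the 4 female controls and at 212129, 144104, 222045 and 184057 CPM in the 4 male controls. Every male control was above every female control. Over all mice, females ran from 59892 CPM to 121635 CPM with a median of 78319 CPM, and males from 109672 CPM to 226160 CPM with a median of 163164 CPM. The overlap came from a single female, PSD mouse 4 at the top of the female range, and a single male, PSD + restraint mouse 2 at the foot of the male range.

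The receptor for growth hormone-releasing hormone, Ghrhr, was 1.62-fold lower in females (log2 fold change -0.70, SE 0.11, adjusted p = 1.06e-05, edgeR). It was at 188, 147, 230 and 146 CPM in female controls and at 341, 257, 338 and 290 CPM in male controls, with no overlap. The ghrelin receptor Ghsr differed by a log2 fold change of -0.96 (SE 0.18, adjusted p = 1.59e-04). Its controls did overlap, at 0.948, 1.36, 1.79 and 1.71 CPM in females and 3.86, 2.003, 2.13 and 1.63 CPM in males, and the highest male was mouse 1, the gland with few posterior lobe transcripts. Without that mouse the control difference in Ghsr was -0.40 in place of -0.74 on the log2 scale (adjusted p = 0.492 and 0.129), while over all mice it was -0.88 (adjusted p = 4.53e-04).

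Both inhibitory receptors moved in the same direction as Gh. Sstr5 had a log2 fold change of -0.79 (SE 0.10, adjusted p = 7.37e-07, edgeR), with 9.17, 12.2, 11.9 and 12.7 CPM in female controls and 18.6, 20.6, 23.3 and 22.8 CPM in male controls. Sstr2 had a log2 fold change of -0.90 (SE 0.20, adjusted p = 0.00106), with 1.96, 3.03, 3.22 and 2.45 CPM in female and 5.37, 4.31, 6.67 and 6.24 CPM in male controls. Controls of the sexes did not overlap for either gene. Over all mice, males spread widely for Sstr2, from 1.49 CPM to 8.19 CPM with a median of 5.01 CPM, so that 15 of 16 females exceeded the lowest male. Slc39a11, whose gene spans Sstr2, was itself lower in females by 0.49 on the log2 scale (adjusted p = 2.74e-05), and its part in the Sstr2 value was not tested.

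Of the transcription factors, Rxrg was 1.51-fold lower in females (log2 fold change -0.60, SE 0.08, adjusted p = 1.23e-06, edgeR). Its female controls had 40.7, 31.8, 44.6 and 32.5 CPM and its male controls 62.7, 49.6, 59.0 and 54.0 CPM, with no overlap. Pou1f1, which marks the wider lineage that includes lactotropes, stood at 116, 112, 116 and 101 CPM in female controls and 110, 86.0, 106 and 105 CPM in male controls. Its log2 fold change over all mice was 0.05 (SE 0.09, adjusted p = 0.674), with a 95% interval from -0.12 to 0.23. The 2 sexes thus carried a like range of Pou1f1, 83.6 CPM to 141 CPM in females and 85.6 CPM to 150 CPM in males, over ranges of Gh that barely met.

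In home cage controls alone, with 4 mice a sex, 4 of the 7 passed the test as lower in females, against 5.84% of all genes called lower and 10.8% called in either direction. These were Gh (log2 fold change -1.22, adjusted p = 7.79e-04, edgeR), Ghrhr (-0.79, adjusted p = 0.00967), Sstr5 (-0.90, adjusted p = 0.00268) and Rxrg (-0.59, adjusted p = 0.00549). Sstr2 was at -1.09 with an adjusted p of 0.0535, and passed with DESeq2 (adjusted p = 0.0299) or with a stricter filter on counts (adjusted p = 0.0482). For 5 genes all female controls lay below all male controls, as did 9.29% of all genes tested. The same 4 genes passed without male control mouse 1, with Gh at -1.16 (adjusted p = 0.00336) and Ghrhr at -0.73 (adjusted p = 0.0327). Pou1f1 in controls was at 0.13, with a 95% interval from -0.18 to 0.44.

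**Figure D2:**
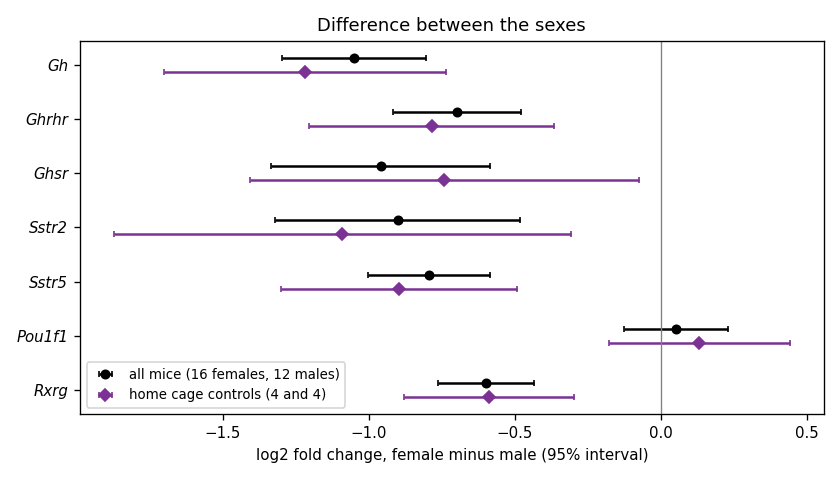
Log2 fold change, female minus male, of each gene with its 95% interval, for all mice (black circles) and for home cage controls (purple diamonds). Intervals of 6 genes lie wholly below 0 over all mice, from -0.60 for Rxrg to -1.05 for Gh, and that of Pou1f1 spans 0.

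The hormone made by the sister lineage went the other way. Prl, the hormone of lactotropes, was higher in females by 2.04 on the log2 scale over all mice (SE 0.10, adjusted p = 1.18e-14, edgeR). Gh took 6.10% to 11.5% of a female's counts and 11.4% to 22.1% of a male's, while Prl took 9.46% to 21.2% in females and 3.21% to 4.48% in males. The ratio of Gh to Prl counts ran from 0.372 to 0.714 in females and from 3.16 to 6.02 in males, without overlap. In controls the mean log2 ratio was -1.24 in females and 2.30 in males, an 11.6-fold difference (4 against 4, exact permutation test, two-sided p = 0.0286, the smallest that 70 splits allow). Over all mice it was 8.42-fold (permutation test, p = 1e-05, the smallest that 100000 resamples allow).

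**Figure D3:**
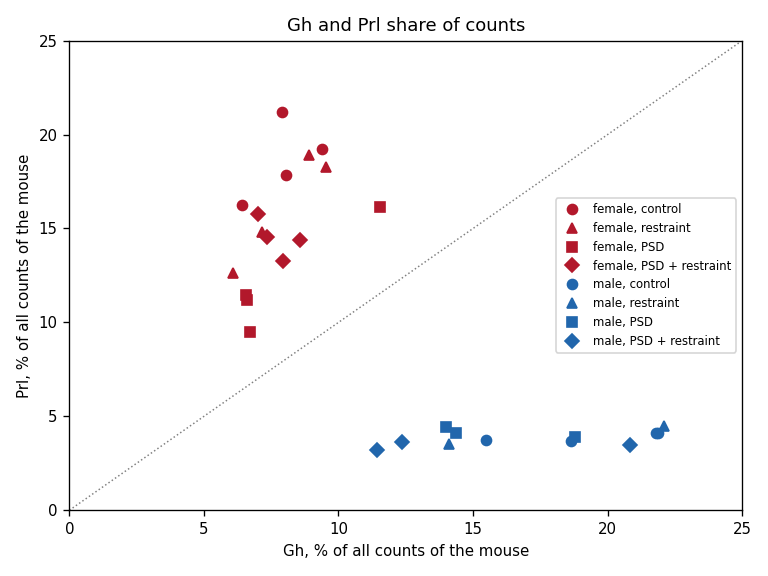
Share of a mouse's counts taken by Gh (horizontal axis, %) and by Prl (vertical axis, %), 1 point per mouse, red for females and blue for males, with a shape per treatment and a dotted line where the shares are equal. All 16 females lie above the line and all 12 males below it.

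Markers of other pituitary cells also differed between the sexes over all mice and are given beside these values. Of the lactotrope markers, Prl and the dopamine receptor Drd2 (log2 fold change 0.37) were higher in females and the angiotensin receptor Agtr1a lower (-1.76). Of 4 gonadotrope markers, Fshb (-2.40) and Lhb (-0.72) were lower in females, and all 4 together summed to 560 to 1227 CPM in females and 1537 to 2103 CPM in males. Of 3 thyrotrope markers, Trhr (-0.69) and Tshb (-0.40) were lower in females. None of the 4 corticotrope markers passed, at 36676 to 164633 CPM in females and 11514 to 126323 CPM in males in sum. Of the melanotrope pair, Pax7 was higher in females (0.56) and Pcsk2 was at 0.08. With the melanotrope level as a covariate, a fit added after the data were seen, Gh was at -0.90, Sstr2 at -0.68 and Ghrhr at -0.60 on the log2 scale over all mice, and the same 6 genes passed. Of the other lists, Oxt (0.88) of 4 posterior lobe markers, Sox9 (0.38) of 3 stem cell markers, and Mbp (0.63) and Slc17a7 (0.66) of 3 forebrain and myelin markers tested were higher in females, Alas2 of 2 red cell markers was lower (-0.54), and no marker of endothelial, macrophage or mural cells and fibroblasts passed. In neither sex was any of these markers at 0 counts in every mouse. In home cage controls alone, Prl, Agtr1a, Fshb and Lhb passed in the same directions. The other markers named above as higher or lower in females did not pass there. Among them Tshb was at 0.02 and Slc17a7 at -0.13 in controls (adjusted p = 0.982 and 0.879, edgeR).

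Against the home cage controls, neither restraint, PSD nor PSD + restraint moved any of the 7 genes past the test, in females, in males or over all mice. Restraint called 1.16% of all genes tested over all mice, 0.539% in females and 0.278% in males. PSD called 0.652%, 0.0278% and 0.00546%, and PSD + restraint 5.52%, 2.36% and 2.53%. At an unadjusted p under 0.05 (edgeR) there was 1 of the 7 in PSD females, beside 3694 of all 17981 genes tested. In the PSD + restraint fit of all mice there was 1, beside 4897 of 18874. DESeq2 likewise called 0 of the 7 in each of these comparisons with controls. Over all mice the median log2 fold change of the 7 was -0.05 with restraint, -0.11 with PSD and -0.13 with PSD + restraint, beside medians within 0.01 of 0 over all genes.

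Gh itself was at 72559, 59892, 103258 and 94735 CPM in restrained females and at 226160 and 134074 CPM in the 2 restrained males. After PSD it was at 61544, 68599, 64290 and 121635 CPM in females and at 182224, 130041 and 139587 CPM in males. Each of these sets overlapped its own controls. The Gh log2 fold change over all mice was -0.05 with restraint (95% interval -0.40 to 0.30), -0.19 with PSD (-0.52 to 0.15) and -0.21 with PSD + restraint (-0.54 to 0.13).

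Across the 8 groups, Gh was ordered by sex, with all 4 female group means between 78278 and 82611 CPM and all 4 male means between 148105 and 190584 CPM. The gap between restrained females and PSD + restraint males was the only step between neighbours larger than the SD of either group. Ghrhr had 1 such step, between PSD males (250 ± 17 CPM, SD, n = 3) and restrained males (298 ± 15 CPM, n = 2), and Rxrg 1, between PSD + restraint females (39.1 ± 5.1 CPM, n = 4) and PSD + restraint males (50.5 ± 8.8 CPM, n = 3). Ghsr, Sstr2, Sstr5 and Pou1f1 had none. Female groups took the 4 lowest places for each of the genes apart from Pou1f1, whose lowest places were held by PSD + restraint males and male controls.

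Ghsr came nearest to a change with PSD in females. The 4 PSD females had 0.831, 1.31, 0.846 and 0.849 CPM, from 16 to 34 counts each, and 3 of them were below every female control. The log2 fold change was -0.62 (95% interval -1.22 to -0.01, unadjusted p = 0.0469, adjusted p = 0.237, edgeR). In PSD males Ghsr was at 2.12, 2.60 and 4.08 CPM, a log2 fold change of 0.29 with an adjusted p of 0.873. The difference between the sexes in this response was -0.88 on the log2 scale with an adjusted p of 0.521. No gene of the 7 passed the test of a different response of the sexes to restraint, PSD or PSD + restraint, or the test of an interaction of PSD with restraint, in all of which edgeR called 0% of all genes, with 743 to 2033 genes and none of the 7 at an unadjusted p under 0.05. DESeq2 called 25 genes for PSD and 10 for PSD + restraint in the tests of the sexes, and none of the 7. Nor did any of the 7 differ between PSD + restraint and restraint alone, where 0.0334% of all genes were called in females and 0.00546% in males.

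**Figure D4:**
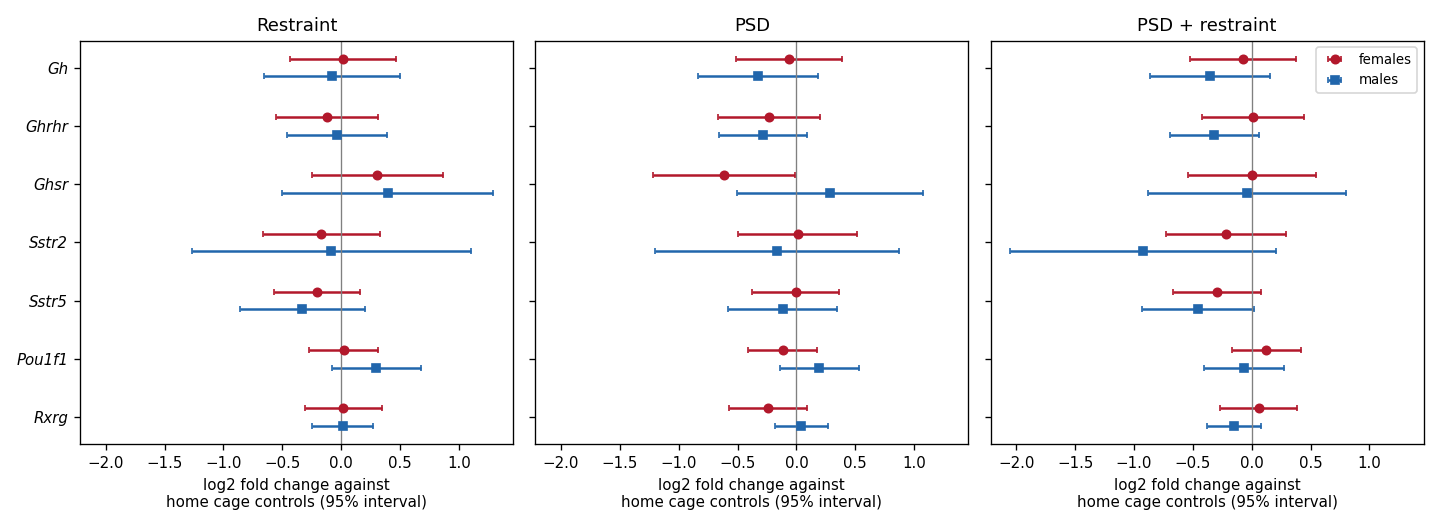
Log2 fold change of each gene against home cage controls of the same sex, with 95% intervals, for restraint, PSD and PSD + restraint (red circles females, blue squares males). All intervals span 0 except that of Ghsr in PSD females (-1.22 to -0.01), and the widest are those of Sstr2 in males.

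PSD + restraint males split into a low pair and 1 high mouse. Gh was at 122129 and 109672 CPM in mice 1 and 2 and at 212515 CPM in mouse 3. Ghrhr was at 199 and 189 CPM against 347 CPM, Sstr2 at 1.57 and 1.49 CPM against 6.45 CPM, and Sstr5 at 12.8 and 12.4 CPM against 21.7 CPM in the same order. Mouse 3 thus lay within the range of the male controls for Gh, Sstr2 and Sstr5 and just above it for Ghrhr, while mice 1 and 2 lay below every male control for all of these genes. Rxrg and Pou1f1 followed less steeply, at 45.9, 45.0 and 60.7 CPM and at 88.6, 85.6 and 116 CPM. For Rxrg, too, mice 1 and 2 lay below every male control. Ghsr was at 2.19 and 1.23 CPM in mice 1 and 2 and at 3.84 CPM in mouse 3.

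The corticotrope and melanotrope hormone gene Pomc ran the opposite way in these mice, at 12.8% and 12.6% of counts in mice 1 and 2 and 6.49% in mouse 3. The melanotrope markers summed to 2044, 1965 and 1133 CPM in the same order, and the posterior lobe markers to 28.9, 33.4 and 17.9 CPM. Their part in the levels of the somatotrope genes was not tested. Without mouse 3, Ghrhr passed the test in PSD + restraint males (log2 fold change -0.66, adjusted p = 0.00813, edgeR) where it had been at -0.32 (adjusted p = 0.380) with all 3. Sstr5 over all mice then passed at -0.47 (adjusted p = 0.0268), from -0.37 (adjusted p = 0.0848). Without mouse 3, Gh in males was at -0.72 (adjusted p = 0.0913) and Sstr2 at -1.88 (adjusted p = 0.0583). Mouse 3 therefore decided these calls, and without mouse 1 or mouse 2 no gene of the 7 passed. Without mouse 3 only mice 1 and 2 remained in this male group. Mouse 3 stood out by its high values of these same genes, so leaving it out lowers the mean and the spread together. These passes therefore cannot show a fall with PSD + restraint.

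Within a sex, mice with more Gh also had more of most of the other genes. Of 12 relations with Gh, 6 genes in each sex, 8 passed at an adjusted p of at most 0.05 by Pearson's r on log2 CPM (permutation tests of 100000 resamples, adjusted over the 12) and 4 by Spearman's rho. The share of all genes that would pass within a sex was not computed, and many other genes also followed Gh, as ranked below. Sstr2 was closest in males (n = 12, r = 0.88, rho = 0.88, permutation p = 8e-05, adjusted p = 9.6e-04). In females (n = 16) Sstr2 had r = 0.70 and rho = 0.73 (permutation, adjusted p = 0.0114 and 0.0126) and Pou1f1 had r = 0.70 and rho = 0.70 (adjusted p = 0.0114 and 0.0143). Pou1f1 thus followed Gh within each sex (males r = 0.66, rho = 0.63, permutation, adjusted p = 0.0370 and 0.0768) without differing between them. Ghrhr was related to Gh in males (r = 0.75, rho = 0.70, permutation, adjusted p = 0.0157 and 0.0411) and not past the threshold in females (r = 0.48, rho = 0.53, adjusted p = 0.0745 and 0.0768). Sstr5 had r = 0.70 in males and 0.54 in females (permutation, adjusted p = 0.0321 and 0.0466), and its rho of 0.56 and 0.47 did not pass (adjusted p = 0.0887 for both). Rxrg had r = 0.69 in males and 0.52 in females (permutation, adjusted p = 0.0321 and 0.0533), with rho of 0.52 and 0.50 (adjusted p = 0.0994 and 0.0887). Ghsr did not pass in either sex (r = 0.47 and rho = 0.33 in males, r = 0.13 and rho = 0.20 in females, permutation, adjusted p from 0.129 to 0.634).

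Leaving out the pair of mice farthest from the median of Gh in each sex, r with Gh fell to 0.60 for Sstr2 and 0.55 for Pou1f1 in females and to 0.81 for Sstr2, 0.71 for Ghrhr and 0.46 for Pou1f1 in males, the lowest of the relations that had passed being 0.41 for Sstr5 in females. Ghsr, which had not passed, moved the most, from 0.13 to 0.53 in females and from 0.47 to 0.14 in males. Within treatment groups, from deviations about the treatment means, 3 of the 12 passed: Sstr2 in females (r = 0.76, permutation, adjusted p = 0.0113), and Sstr2 (r = 0.91) and Pou1f1 (r = 0.85) in males (permutation, adjusted p = 0.0467 for both). All of these values are shares of one library, in which Pomc ran against Gh (r = -0.62 over deviations from the group means of the 28 mice). With Gh, Prl and Pomc left out of the library totals, 8 of 12 passed as well. That scaling hardly moved r (0.878 either way for Sstr2 in males), and it cannot tell how the share of other cells in a gland enters these relations.

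**Figure D5:**
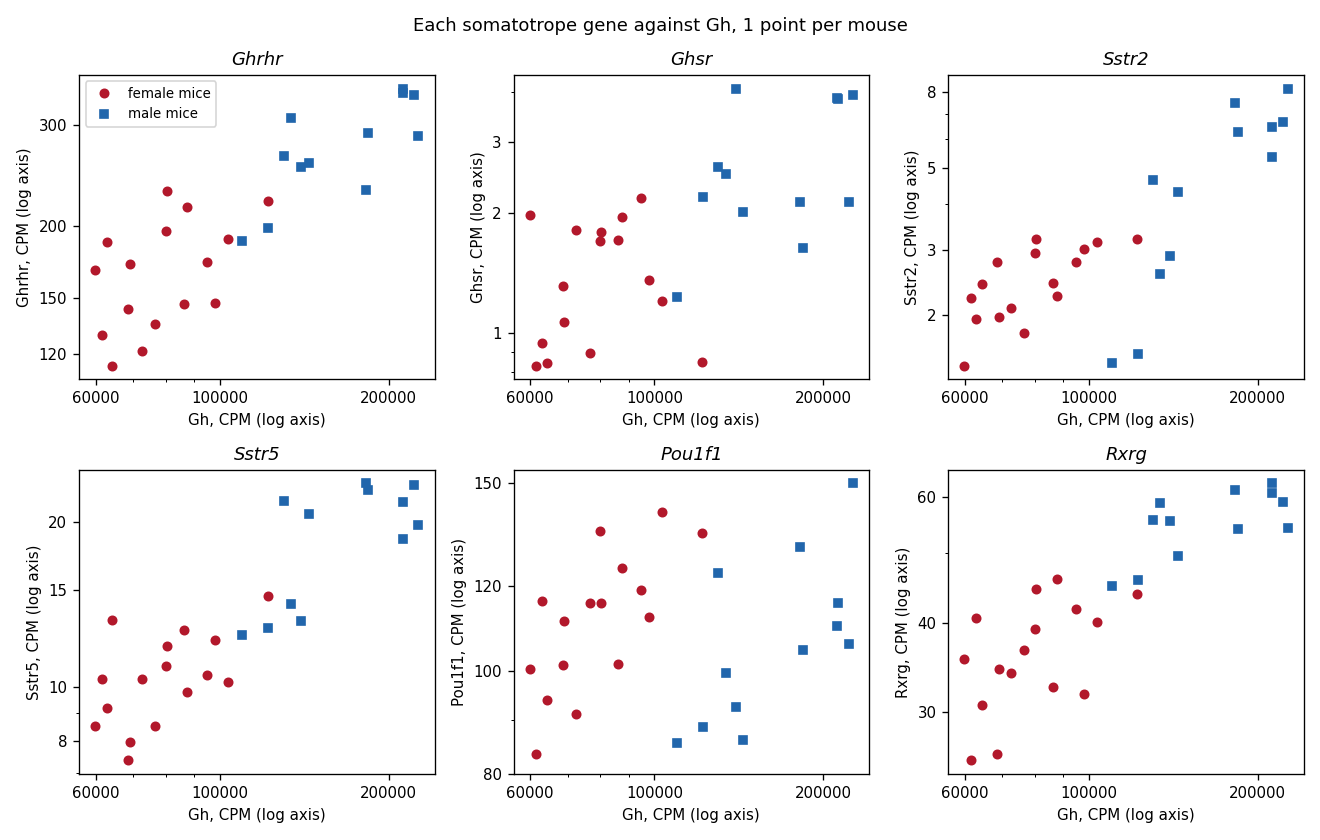
Level of each gene against that of Gh in the same mouse, both in CPM on log axes, with 1 red circle per female and 1 blue square per male. Points rise with Gh within each sex for Sstr2 (r = 0.70 in females, 0.88 in males), most females lie below the males for Rxrg and Ghrhr, and for Pou1f1 the sexes share a vertical range.

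Described over deviations from the mean of each sex and treatment group, all 21 pairs of the 7 genes had r above 0, with a median of 0.55. Pairs of other genes were not taken for comparison. The highest was Ghrhr with Rxrg (0.83), followed by Gh with Sstr2 (0.81) and Gh with Pou1f1 (0.80), and the lowest Ghsr with Sstr5 (0.10). Among 13813 genes, those most like Gh by this measure over 28 mice were Isg20 (r = 0.94), which encodes an interferon-stimulated exonuclease, Pappa2 (0.94), a protease that cleaves IGF-binding proteins, Slc50a1 (0.93), a sugar transporter, Hbs1l (0.91), a ribosome rescue factor, and Rcbtb1 (0.90). Sstr2 ranked 52 and Pou1f1 56 for likeness to Gh, and Prl ranked 136 (r = 0.76). The rest of the 7 ranked lower, with Sstr5 at 486, Rxrg at 816, Ghrhr at 1126 and Ghsr at 3034. Those most like Ghrhr included Reps1 (0.86), Galnt16 (0.85), Rcan3 (0.84) and Sec14l4 (0.84), with Rxrg ranked 8.

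Other genes of the growth hormone pathway were called in both directions between the sexes. Their counts stand beside the 14.9% of all genes called for sex, and no list was tested against other genes. Of 16 genes of growth hormone release, 14 were tested, and 3 were higher and 2 lower in females over all mice, with 9 not called. Gpr101, an X-linked Gs-coupled receptor, had 0 to 9 counts in each female and 88 to 364 counts in each male, a log2 fold change of -5.91 (SE 0.23, adjusted p = 4.21e-17, edgeR). Mrap2, an accessory protein that modulates the ghrelin receptor, was lower in females (11.6 ± 1.9 CPM, SD, n = 16, against 17.9 ± 2.1 CPM, n = 12, log2 fold change -0.61, adjusted p = 5.38e-07). Sstr1, another somatostatin receptor, went the other way from Sstr2 and Sstr5, at 57.8 ± 9.3 CPM in females and 31.3 ± 8.8 CPM in males (log2 fold change 0.87, adjusted p = 2.70e-06).

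Of 20 genes of growth hormone and IGF1 signalling, 19 were tested, and 5 were higher and 2 lower in females. Igf1r, the IGF1 receptor, was higher in females (log2 fold change 0.41, adjusted p = 3.53e-07, edgeR), as was Stat5b, which relays growth hormone receptor signals (0.45, adjusted p = 7.80e-06). Igfbp1, an IGF-binding protein, had 0 to 3 counts in each female and 2 to 14 counts in each male (adjusted p = 7.47e-08). The median log2 fold change of this list was 0.16 and that of the release list 0.09, beside 0.01 over all genes tested.

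Of 14 factors of the PIT1 lineage and early pituitary, all were tested, and 3 were higher and 4 lower in females. The basic helix-loop-helix factor Neurod4 was higher in females (log2 fold change 1.21, adjusted p = 7.41e-06, edgeR). Gata2, a factor of thyrotropes and gonadotropes, was lower (-0.88, adjusted p = 9.49e-06), and so was Hesx1, an early repressor, on 0 to 8 counts in each female and 6 to 23 counts in each male (adjusted p = 2.99e-07). Of 12 retinoid, thyroid hormone and related nuclear receptors, 1 was higher and 1 lower in females, a share near the 14.9% of all genes called: the thyroid hormone receptor Thrb (0.59, adjusted p = 2.83e-04) and the vitamin D receptor Vdr (-0.81, adjusted p = 1.70e-06). The other retinoid X receptors, Rxra and Rxrb, were not called.

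A few genes of these lists changed with the treatments. Crem, which encodes regulators of cyclic AMP-driven transcription, rose in the whole gland with restraint (log2 fold change 1.01, SE 0.17, adjusted p = 7.53e-04, edgeR, all mice) and with PSD + restraint (1.33, SE 0.16, adjusted p = 4.29e-06). Irs2, an insulin and IGF1 receptor substrate, rose in both, by 0.77 with restraint alone (adjusted p = 0.00428) and by 0.99 with the pair of stressors (adjusted p = 4.95e-05). In the latter mice the retinoic acid receptor Rarb rose (0.36, adjusted p = 0.0128) and Thrb fell (-0.58, adjusted p = 0.0177). Of the 59 genes tested from all 4 lists, 2 were called with restraint, 0 with PSD and 5 with PSD + restraint, over all mice. Of all genes, 1.16%, 0.652% and 5.52% were called in the same order. With PSD, 12 of the 59 had an unadjusted p under 0.05 (edgeR), beside 3336 of all 18874 genes, and DESeq2 called 1 of the 59. Whether the lists or the 7 genes differ from other genes in this was not tested. The marker Pomc was also higher with PSD + restraint (0.99, adjusted p = 0.0160, edgeR), as was Pcsk2 (0.99, adjusted p = 0.00946), and their part in these changes was not tested. Both values are given only with male control mouse 1. Pomc took 1.17% of its counts, against 4.88% to 6.43% in the other male controls.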

How the data were processed

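The authors made stranded mRNA libraries, placed the read pairs on mm10 using MapSplice, and took counts per gene of the UCSC models from HTSeq 0.9.1 (intersection-nonempty mode), and the deposited raw counts were used. A second deposited table of normalized values was not used (the submitters' processing notes name DESeq2 1.16.1). Genes with low counts were removed with filterByExpr, and edgeR 4.0.16 in R 4.3.3 (TMM scaling over all genes, quasi-likelihood test, Benjamini-Hochberg adjustment over all genes tested) was fitted to all mice for sex and treatment and to each sex for treatments (17981 genes in females, 18324 in males). Log2 CPM used a prior count of 2. Replicates are different mice, and cage mates shared a PSD tank, so that mice of a group may not be fully independent. No pair of replicates agreed within sampling noise (37 pairs). Permutation tests used scipy. Scripts were tested on simulated data. The 7 genes and the lists were chosen with earlier results of these data known. Named list genes are at most 4 a list by smallest p among those called, and the 5 genes most like Gh and Ghrhr, of which some are not reported here. Alternatives were DESeq2 1.42.0, other scalings and filters, a replicate block, separate fits and each mouse left out.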

Additional observations from a re-analysis of the deposited data

Results flagged for a closer look

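In groups of 4 mice, 3 of 35 sets of values had 1 mouse far from the other 3 (Dixon's 95% limit), and chance alone flags about 1 in 20. Gh was at 121635 CPM in female PSD mouse 4 and at 61544 to 68599 CPM in the other PSD females. Without this mouse the sex difference in Gh was -1.12 on the log2 scale. Ghsr was at 1.31 CPM in female PSD mouse 2 and at 0.831 to 0.849 CPM in the others. Sstr5 was at 8.52 CPM in restrained female mouse 2 and at 10.2 to 10.5 CPM in the others.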

How the results depend on the processing

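Of 2646 values of the 7 genes under the alternatives, 2642 stayed on their side of the threshold (156 of those not called changed sign), 4 passed it in addition and 0 were lost or reversed as calls. The count of genes of the 7 called with PSD + restraint went from 0 to 1 without male PSD + restraint mouse 3, both over all mice (Sstr5) and in males (Ghrhr), so with single mice left out it ran from 0 to 1 in each. Relations with Gh past the threshold went from 8 to 3 of 12 when taken from deviations about the treatment means. With the all-mice sex fit the count was 6 under every alternative, and in controls it was 4 or 5. Replicate numbers did not pair the mice (r of deviations between same-numbered mice from -0.35 to 0.34 in females and -0.22 to 0.12 in males), and with a replicate block 6 genes were called for sex over all mice, 4 in controls and 0 with any treatment, while the count over all genes fell from 123 to 40 for PSD over all mice and from 464 to 143 for PSD + restraint in males, and rose from 5 to 25 for PSD in females; it fell from 51 to 4 for restraint in males. Counts over all genes were tool dependent in the smaller comparisons: DESeq2 called 441 genes for PSD in females where edgeR called 5, 86 where it called 1 in males, 288 where it called 123 over all mice, 210 and 101 where it called 97 and 51 for restraint in females and males, 731 and 721 where it called 424 and 464 for PSD + restraint, and 104 and 121 where it called 6 and 1 for PSD + restraint against restraint. PSD in females alone ran from 0 to 524 genes with 1 mouse left out, the highest without PSD mouse 4. Without the fold threshold 6506 in place of 2814 genes were called for sex and 2155 in place of 1041 for PSD + restraint, over all mice. PSD in males gave 11 in place of 1 with no filter on low counts. Fits of the groups compared alone gave 0 and 53 in place of 5 and 97 genes for PSD and restraint in females. The cause was not tested for any of these. Groups of 2 to 4 mice limit the treatment comparisons, and 12 to 182 counts a mouse limit Ghsr.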
